A study of Mus musculus with 16 samples.

Results

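Ccl3, Ccl4, Ccl5 and Ccr1 are 4 of the 32285 genes listed in each of 8 droplet single-cell count matrices from B16 melanomas, and they were taken by their gene symbols. The first 3 encode CC chemokines (MIP-1alpha, MIP-1beta and RANTES), and Ccr1 encodes a G protein-coupled receptor for Ccl3 and Ccl5. CC chemokines are small secreted proteins with a pair of adjacent cysteines that attract leukocytes carrying their receptors. Ccl3 and Ccl4 are released early by activated macrophages, granulocytes, NK cells and T cells, whereas Ccl5 is made by effector and memory CD8 T cells, by NK cells and by activated myeloid cells. Ccr1 is carried mainly by neutrophils, monocytes and macrophages and couples to inhibitory G proteins.

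C57BL/6J mice carried subcutaneous tumours grown from 1000000 cells of the Bro4.1 line of B16, either control or B2m-null, and were injected intraperitoneally with 100 µg of anti-CD40 or of rat IgG2a as isotype control on days 6, 9 and 12. Tumours were taken on day 14. The groups held 5 mice with control tumours under isotype (control isotype), 2 with control tumours under anti-CD40 (control CD40), 5 with B2m-null tumours under isotype (B2m-null isotype) and 4 with B2m-null tumours under anti-CD40 (B2m-null CD40). The B2m-null state belongs to the implanted cells per the design text, while the sample labels place it on the mouse, and ages are not among the labels used here. Cells from each tumour were enriched on CD45 beads, tagged with a hashtag antibody per mouse and pooled within the group.

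All groups share 1 tumour line. B2m is the gene of the small subunit of class I MHC molecules. The control CD40 group came from 1 pool run on 2 technical lanes, so pool and treatment cannot be told apart there, and each other group came from 2 pools. Each lane had 12894 to 17666 barcodes, and its median barcode held 1715 to 4225 unique molecular identifiers (UMIs). B2m in the few cells with melanoma markers stood at 913 to 1991 CPM (counts per 1000000 counts of the same cells) in the control lanes and at 151 to 350.0 CPM in the B2m-null lanes. Between 41 and 92 cell barcodes were shared by any pair of lanes, and the technical pair shared 70.

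Cells were placed in gates by marker genes, and 23.3% of them entered none. Outside the markers used, Gzma stood at 7549 CPM in the NK gate and at 463 CPM in the CD8 T gate. Il2rb and Tyrobp were also higher in the NK gate, whereas Nkg7 was not, at 1827 CPM against 1935 CPM in the CD8 T gate. Apoe, a macrophage gene, stood at 3388 CPM in the macrophage gate and at 761 CPM in the monocyte gate. Cd68 was also higher in the macrophage gate, at 566 CPM against 321 CPM. Lyz2 and Fcgr1 were higher in the monocyte gate, at 8327 and 428 CPM against 5417 and 261 CPM in the macrophage gate. CD8 T cells made up 5.93% of cells in control isotype, 25.0% in control CD40, 2.75% in B2m-null isotype and 20.02% in B2m-null CD40. Monocytes made up 13.6%, 2.33%, 12.4% and 10.3% in the same order. The gates are called by their cell type below.

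The ligand genes lie close together on mouse chromosome 11 of mm10, each with 3 exons. Ccl5 (ENSMUSG00000035042) spans chr11:83525778-83530518 on the minus strand, Ccl3 (ENSMUSG00000000982) chr11:83647844-83649355 on the minus strand and Ccl4 (ENSMUSG00000018930) chr11:83662584-83664683 on the plus strand. Ccl3 and Ccl4 are separated by 13228 bases. Ccr1 (ENSMUSG00000025804) has 2 exons and spans chr9:123962124-123968692 on the minus strand. No other annotated gene of GENCODE vM21 overlaps any of the 4 on either strand. The coding sequences of Ccl3 and Ccl5 are shown to set their adjacent cysteines side by side. They run 5′ to 3′ from the start to the stop codon, with the codons of the adjacent cysteines in capitals.
Ccl3: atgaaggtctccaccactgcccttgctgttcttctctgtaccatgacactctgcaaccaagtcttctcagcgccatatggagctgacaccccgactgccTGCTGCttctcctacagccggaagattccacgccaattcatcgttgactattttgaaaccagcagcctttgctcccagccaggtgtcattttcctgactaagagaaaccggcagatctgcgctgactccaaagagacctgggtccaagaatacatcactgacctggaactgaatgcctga
Ccl5: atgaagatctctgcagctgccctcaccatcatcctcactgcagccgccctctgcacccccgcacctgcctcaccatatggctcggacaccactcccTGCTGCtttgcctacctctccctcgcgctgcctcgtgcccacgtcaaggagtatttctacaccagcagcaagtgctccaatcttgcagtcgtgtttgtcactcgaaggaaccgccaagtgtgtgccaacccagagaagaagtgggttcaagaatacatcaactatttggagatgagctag
The cysteine pair starts at codon 34 in Ccl3 and at codon 33 in Ccl5. The coding sequences of Ccl3 and Ccl5 matched at 62.5% of aligned bases, and their transcripts shared no exact stretch longer than 13 bases.

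The 250 bases before the RefSeq start of Ccl3 (GRCm38.p6, chr11:83649379-83649628, minus strand) are shown because Ccl3 moved with Ccl4 across gates, with capitals for the motifs found.
Ccl3 promoter: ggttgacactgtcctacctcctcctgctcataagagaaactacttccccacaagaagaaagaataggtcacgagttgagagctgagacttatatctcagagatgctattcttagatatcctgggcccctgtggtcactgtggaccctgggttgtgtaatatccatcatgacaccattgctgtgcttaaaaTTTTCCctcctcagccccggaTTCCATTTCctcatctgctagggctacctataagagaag
An NFAT core (GGAAAA, read on either strand) lay 60 to 55 bases before the start, and 20.4% of 32851 promoters of this length held one. An interferon response match (GAAANNGAA) lay 39 to 31 bases before the start, against 7.13% of promoters. The NF-kappaB core GGANNTTCC, the AP-1 letters TGANTCA and the cyclic AMP response element TGACGTCA were not in this window, nor were any of these motifs in the same window of Ccr1 (chr9:123968693-123968942). They were in 3.59%, 6.75% and 1.55% of promoters. The Ccl4 and Ccl5 promoters were not used here.

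Under isotype, the ligands were divided between gates in different ways. Levels are ordered over gates with at least 20 cells in a mouse, which leaves out the mast or basophil gate of 66 cells. In control isotype that gate held 0.597% of the Ccl3 and 0.378% of the Ccl4 UMIs in 0.0922% of the cells, against 1.20% and 0.345% in 0.356% for neutrophils, so its share per cell was the higher one. Among the gates ordered, Ccl3 was highest in neutrophils, at 10603 CPM ± 3023 (SD, n = 4 mice), followed by CD8 T cells at 899 ± 623 (n = 10), monocytes at 782 ± 150, NK cells at 481 ± 168 and macrophages at 359 ± 49.6. Neutrophils stood above CD8 T cells by more than both SDs, and monocytes above NK cells, whereas CD8 T cells and monocytes differed by less than their spread, as did NK cells and macrophages. In control isotype alone, monocytes stood at 877 ± 140 and CD8 T cells at 856 ± 126. NK cells, at 506 ± 106, lay there above macrophages, at 385 ± 36.7, by more than both SDs. Over both genotypes, mature dendritic cells had the lowest Ccl3, at 29.1 CPM ± 18.3. The neutrophil gate was small, with 357 cells at a median of 766 UMIs over all groups, and its isotype level of Ccl3 came from 1388 counts in 62 control and 93 B2m-null cells.

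Ccl4 followed a similar order, with 8232 CPM ± 2131 (SD, n = 4) in neutrophils. Plasmacytoid dendritic cells came next at 2009 ± 796 (n = 8), then CD8 T cells at 1940.2 ± 1124 (n = 10), monocytes at 1616 ± 545, NK cells at 1393 ± 401 and macrophages at 957 ± 312. From plasmacytoid dendritic cells through CD8 T cells and monocytes to NK cells, no step in this order was beyond the spread, whereas neutrophils lay above the first and macrophages below the last by more than both SDs. By genotype the steps differed. In control isotype, monocytes, at 2017 ± 338, lay above CD8 T cells, at 1479 ± 301, by more than both SDs. NK cells, at 1489 ± 521, and macrophages, at 1199 ± 245, differed there by less than their spread. In B2m-null isotype, CD8 T cells, at 2401 ± 1490, had a higher mean than plasmacytoid dendritic cells, at 1626 ± 942. Over both genotypes, mature dendritic cells were again lowest, at 88.8 ± 74.1.

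Ccl5 had another order, led by mature dendritic cells at 4711 CPM ± 1657 (SD, n = 10) and NK cells at 4373 ± 1876, which did not differ beyond their spread. CD8 T cells stood at 1995 ± 929, T cells that entered none of the CD8, CD4 and regulatory gates at 1732 ± 631, CD4 T cells at 979 ± 265 (n = 5) and regulatory T cells at 412 ± 116 (n = 5). Monocytes, at 94.3 ± 55.0, and macrophages, at 73.99 ± 47.1, were within their spread of each other. In the cross-presenting dendritic gate (cDC1) Ccl5 was 18.9 ± 20.9, so the dendritic gates held both the highest and the lowest mean.

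Ccr1 was highest in neutrophils, at 2385 CPM ± 173 (SD, n = 4). Monocytes followed at 570.2 ± 54.0 (n = 10), macrophages at 233 ± 35.7 and the cDC2 dendritic gate at 117 ± 48.8, each step larger than both SDs. All other gates lay at 54.0 CPM or below, with 12.3 ± 10.1 in CD8 T cells. The plot of member levels by gate shows these orders.

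**Figure D1:**
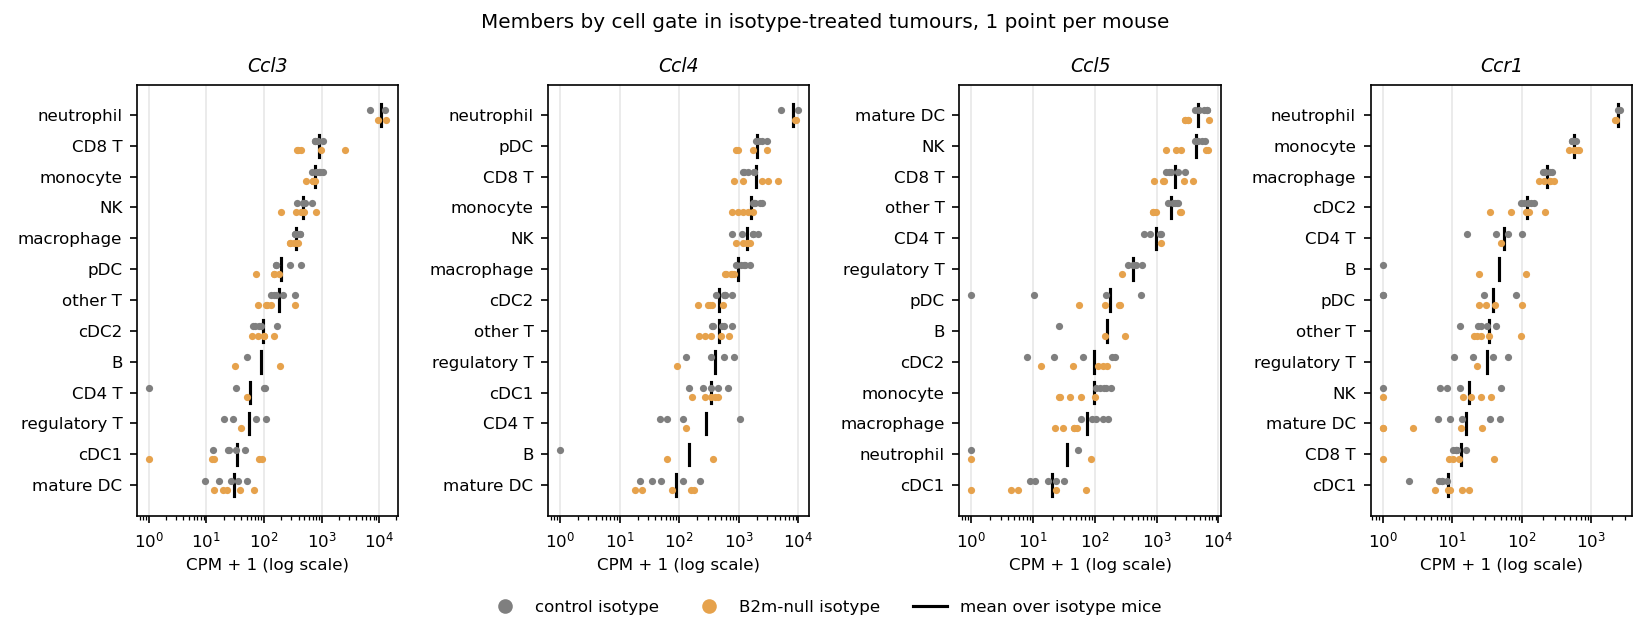
CPM + 1 on a log scale (x axis) of each member in each gate (y axis, ordered by mean) for isotype-treated mice; points are single mice with control or B2m-null tumours and black lines are means over mice. Of the gates shown, which have at least 20 cells in a mouse, neutrophils lead for Ccl3, Ccl4 and Ccr1, mature dendritic cells for Ccl5.

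The pattern of each member over 44 combinations of gate and group was set beside 8268 other genes, as Pearson correlations of log2(CPM + 1) that share libraries and depth. The gene most like Ccl3 was Ccl4 (0.90), followed by Selenon (0.83) and Tollip (0.83). For Ccl4, Wbp1l (0.75) and Selenon (0.74) came after Ccl3. Ccl5 was most like AW112010 (0.87), Tcf7 (0.85), which encodes a T cell transcription factor, and Adora2a (0.85), an adenosine receptor gene. Its correlation with Ccl3 was 0.03. Ccr1 was most like Cxcl2 (0.94), a neutrophil-attracting chemokine gene, Cebpb (0.93), a myeloid transcription factor gene, and Ptgs2 (0.92), which encodes cyclooxygenase-2.

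Within single cells thinned to 2000 UMIs, Ccl4 was found more often where Ccl3 was found. In CD8 T cells, Ccl4 was detected in 77.5% of Ccl3-positive and 41.1% of Ccl3-negative cells in control isotype. The shares were 80.3% and 54.2% in control CD40, 65.2% and 26.4% in B2m-null isotype, and 63.2% and 30.1% in B2m-null CD40. In macrophages of all groups together, they were 67.3% and 39.0% over 24609 cells. Ccl5 was found in 12.0% of Ccl3-positive and 12.4% of Ccl3-negative macrophages, but in 94.8% and 68.2% of NK cells and 58.1% and 38.6% of CD4 T cells. In CD8 T cells it was found in 76.6% and 63.5% in control isotype, 94.3% and 96.9% in control CD40, 77.3% and 65.3% in B2m-null isotype, and 92.1% and 83.5% in B2m-null CD40. These shares describe cells and were not tested.

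The first comparison asked how anti-CD40, an antibody against the costimulatory receptor of dendritic cells, macrophages and B cells, was followed by changes in these genes in control tumours. Ccl5 rose in CD8 T cells, CD4 T cells, monocytes and macrophages, Ccl3 rose in CD4 T cells, and Ccr1 fell in monocytes and macrophages. Of 23 pairs of a member and a cell set, 7 passed an adjusted p of 0.05 in edgeR's quasi-likelihood test, 5 higher and 2 lower, against 15.7% of all gene and set pairs (8.23% higher and 7.48% lower). Ccr1 in NK cells was too low to be tested. In B2m-null tumours, 7 of 23 pairs passed, 4 higher and 3 lower, against 20.1% of all pairs (10.7% higher and 9.39% lower). There Ccl5 rose in CD8 T cells, NK cells, monocytes and macrophages, Ccl3 and Ccl4 fell in CD8 T cells and Ccr1 fell in monocytes. Both contrasts use different mice, whereas each genotype contrast below reuses groups of these.

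In CD8 T cells, Ccl5 stood at 1567, 2196, 1429.5, 1727 and 2854 CPM in the control isotype mice and at 7036 and 15168 CPM in the control CD40 mice. Both CD40 mice lay above every isotype mouse. Ccl5 rose by 2.55 on the log2 scale (SE 0.50, edgeR adjusted p = 0.000511), where 35.6% of genes tested in CD8 T cells were called. Without control CD40 mouse 2, the higher of the pair, the value was 1.86. Leaving out either control CD40 mouse leaves a single mouse in that group, so the spread then comes from the other groups. Calls kept or lost in such fits, here and below, rest on that borrowed spread.

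Among CD8 T cells from B2m-null tumours, Ccl5 stood at 1332, 893, 1282, 2760.2 and 3910.3 CPM under isotype and at 4666, 2673, 16511 and 12107 CPM under CD40. The groups overlapped, and the CD40 mice of the second pool lay far above those of the first. By pool, the isotype mice stood at 893 to 1332 CPM in the first and at 2760.2 and 3910.3 CPM in the second. Pools of the same number did not overlap, but the first CD40 pool overlapped the second isotype pool. The labels tie no pool number to a shared batch. Ccl5 rose by 2.30 (SE 0.44, edgeR adjusted p = 0.0026), where 10.7% of genes were called. Without the second B2m-null CD40 pool the log2 fold change was 0.91 (adjusted p = 0.218, edgeR), and without the first B2m-null isotype pool it was 1.60 (adjusted p = 0.118). The difference between the CD40 effects of the 2 tumour types was -0.25 (SE 0.69, edgeR adjusted p = 0.872).

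More CD8 T cells held Ccl5, and those that held it held more. After thinning each cell to 2000 UMIs, Ccl5 was found in 68.8% of CD8 T cells in control isotype (95% exact interval 65.7 to 71.8) and in 96.2% in control CD40 (95.4 to 97.0). It was found in 67.6% in B2m-null isotype (62.4 to 72.6) and in 84.4% in B2m-null CD40 (82.8 to 85.8). The mean over positive cells was 6.15 UMIs in control isotype, 26.1 in control CD40, 7.78 in B2m-null isotype and 22.9 in B2m-null CD40. Thinning left out 362, 3758, 229 and 1750 shallower cells in that order. The unthinned shares were 80.3%, 96.6%, 77.8% and 89.1%, at medians of 3365, 1594, 2358 and 2223 UMIs. Intervals cover counting error only. The tenth of CD8 T cells with the most Ccl5 held 50.9% of its UMIs in control isotype and 25.1% in control CD40.

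**Figure D2:**
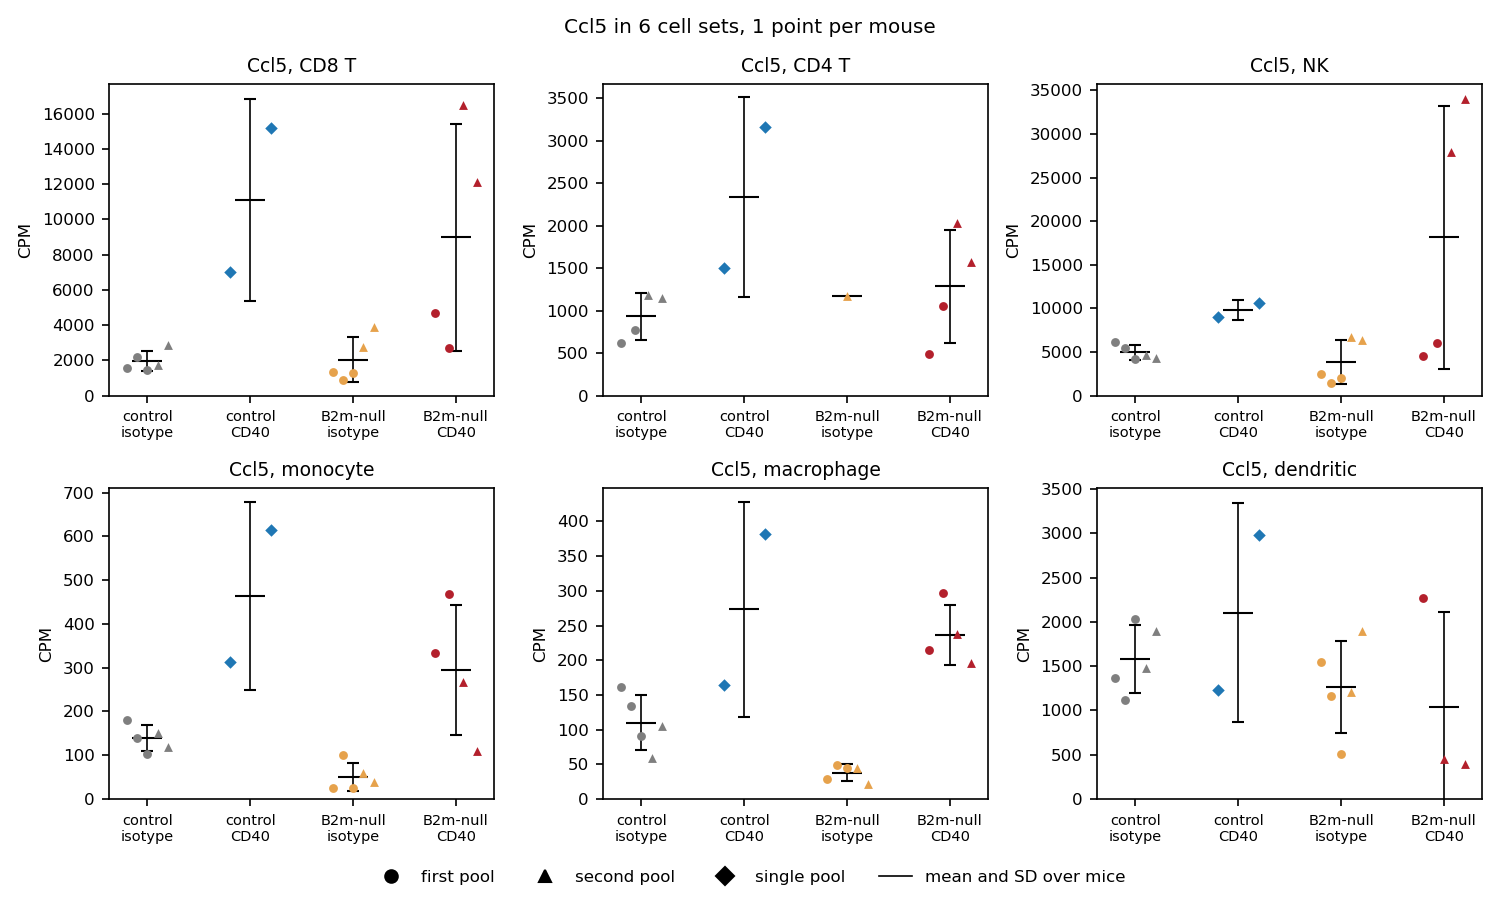
Ccl5 in CPM (y axis, from 0) by group (x axis) in 6 cell sets, 1 point per mouse, with pools as marker shapes and lines for the mean and SD over mice. Both control CD40 mice stand above the control isotype mice in CD8 T cells, and the second B2m-null CD40 pool stands above the first in CD8 T and NK cells.

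In NK cells, Ccl5 stood at 6102, 5429, 4181, 4672 and 4303 CPM in control isotype and at 8983 and 10603 CPM in control CD40. The groups did not overlap, yet the log2 fold change of 1.05 (SE 0.48) did not pass (edgeR adjusted p = 0.288, 2.25% of genes called). In B2m-null tumours Ccl5 stood at 2469, 1399, 2057, 6706 and 6411 CPM under isotype and at 4586, 6011, 27879 and 34037 CPM under CD40. The second CD40 pool lay above every other mouse, and the first lay within the isotype range. Ccl5 rose by 2.32 (SE 0.42, edgeR adjusted p = 0.00109), where 4.5% of genes were called. By pool number the CD40 mice were higher in both, at 4586 and 6011 CPM against 1399 to 2469 CPM in the first isotype pool and at 27879 and 34037 CPM against 6411 and 6706 CPM in the second. The first CD40 pool was lower than the second isotype pool, however, and the labels tie no pool number to a shared batch. Without the second CD40 pool the value was 0.50 (edgeR adjusted p = 0.409). It turned to -0.17 with cells thinned to 2000 UMIs. It was -0.42 with at least 50 cells per mouse, but that left 1 CD40 mouse, of the first pool, against the 2 highest isotype mice, so the choice of mice fixed its sign.

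CD4 T cells were few, with at least 20 cells in 4 and 2 control mice under isotype and CD40, and in 1 and 4 B2m-null mice. Ccl5 stood at 624, 766, 1183 and 1151 CPM in control isotype and at 1502 and 3166 CPM in control CD40, without overlap. Ccl5 rose by 1.37 (SE 0.36, edgeR adjusted p = 0.0452), where 3.03% of genes were called. The call was lost without any 1 of the 6 mice, with values from 0.70 (without control CD40 mouse 2) to 1.77 (without control CD40 mouse 1). The B2m-null isotype group had 1 mouse, at 1173 CPM, whose spread was taken from the other groups. The B2m-null CD40 mice stood at 491, 1049, 2034 and 1573 CPM, and the log2 fold change of 0.27 (SE 0.48) did not pass (edgeR adjusted p = 0.88, 0.28% of genes called).

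In macrophages, Ccl5 stood at 162, 135, 90.2, 58.7 and 105 CPM in control isotype and at 164 and 383 CPM in control CD40. The lower CD40 mouse lay just above the highest isotype mouse. Ccl5 rose by 1.47 (SE 0.34, edgeR adjusted p = 0.00516), where 23.5% of genes were called, and without control CD40 mouse 2 the value was 0.66. Macrophages of B2m-null tumours held Ccl5 at 29.4, 49.6, 44.7, 44.4 and 21.3 CPM under isotype and at 215, 297, 237 and 196 CPM under CD40. Every CD40 mouse was far above every isotype mouse. Ccl5 rose by 2.88 (SE 0.31, edgeR adjusted p = 6.08e-06), where 39.3% of genes were called, and this call held under every alternative run. The rise was larger by 1.40 (SE 0.48, edgeR adjusted p = 0.0434, 22.3% of genes called) than in control tumours, but that difference lost its call under 21 of 34 alternatives, with values from 0.19 to 1.57 in those. Without control CD40 mouse 2 the difference was 2.22, still called, and without control CD40 mouse 1 it was 0.89.

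In monocytes, Ccl5 stood at 181, 140.0, 103, 149.95 and 119 CPM in control isotype and at 312 and 615 CPM in control CD40. The groups did not overlap. Ccl5 rose by 1.76 (SE 0.36, edgeR adjusted p = 0.00337), where 7.09% of genes were called. Without control CD40 mouse 2 the value was 1.19. It was 1.81 without the first control isotype pool (adjusted p = 0.053, edgeR) and 0.78 with cells holding no marker of another lineage (adjusted p = 0.297, edgeR). In B2m-null tumours Ccl5 stood at 24.9, 101, 26.2, 58.9 and 38.9 CPM under isotype and at 334, 468, 267 and 109 CPM under CD40. The groups did not overlap, although the lowest CD40 mouse was close to the highest isotype mouse. Ccl5 rose by 2.66 (SE 0.34, edgeR adjusted p = 1.43e-05), where 28.4% of genes were called, and the call held under every alternative run.

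Lymphocyte transcripts in the myeloid gates were measured beside these Ccl5 values. All 10 genes of a lymphocyte list, all 6 T cell markers and all 6 NK markers had counts in the macrophage and monocyte gates, and none was at 0. In macrophages the list summed to 29.7 CPM (range 19.3 to 41.7) in control isotype, 61.2 (50.9 to 71.6) in control CD40, 22.2 (9.73 to 41.8) in B2m-null isotype and 25.5 (20.6 to 32.9) in B2m-null CD40. Ccl5 in macrophages came to 381, 428, 201 and 954 counts per 100 list counts in that order, against 38.9, 169.7, 44.6 and 108 in T and NK cells. In B2m-null tumours the range of the list under CD40 lay inside that under isotype. The T cell markers, by contrast, had a higher mean under CD40 in both tumour types, at 7.88 CPM (range 4.70 to 12.3) in control isotype, 22.9 (20.7 to 25.0) in control CD40, 5.27 (2.37 to 9.66) in B2m-null isotype and 12.7 (9.28 to 14.9) in B2m-null CD40. The NK markers stood at 2.68, 3.37, 2.16 and 1.13 CPM. The group means of T cell markers and of Ccl5 in macrophages were thus both higher under CD40, but they were not compared mouse by mouse. In B2m-null tumours the macrophage call was kept in the fit without cells holding a marker of another lineage. How much of the result came with T cell marker transcripts was not tested. In monocytes the list summed to 71.6 CPM in control isotype, 172 in control CD40, 95.5 in B2m-null isotype and 39.9 in B2m-null CD40, and Ccl5 per 100 list counts was 199, 275, 85.9 and 755. Their T cell markers stood at 8.55, 41.3, 11.4 and 14.4 CPM.

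The share of cells with Ccl5 was set beside that in the B gate. After thinning to 2000 UMIs, Ccl5 was found in 8.04% of macrophages in control isotype and 23.9% in control CD40, and in 30.4% of 23 B cells of control CD40 (95% exact interval 13.2 to 52.9). In control CD40 the thinned macrophage share lay inside that wide interval, whereas the unthinned one was above that of B cells. The B gate is no matched background there, since it held Ccl5 at 755 CPM ± 522 (SD, n = 2) and the lymphocyte list at 379 CPM, against 61.2 CPM in macrophages, so no reading is taken for control CD40. In B2m-null CD40 it was 17.0% (16.0 to 17.9) against 5.71% in B cells (2.13 to 12.0), and 3.77% in B2m-null isotype. In B2m-null CD40 the lymphocyte list of the B gate stood at 132 to 216 CPM, against 20.6 to 32.9 CPM in macrophages. The T cell markers, by contrast, were alike, at 9.45 to 16.5 CPM in the B gate and 9.28 to 14.9 CPM in macrophages. Whether B cells hold list transcripts of their own was not tested. Whether the B gate is a matched background there is thus unclear, and no reading is taken for that group. Monocytes held Ccl5 in 9.21% and 21.9% of cells in control isotype and control CD40, and in 5.59% and 19.2% in the B2m-null counterparts. The unthinned macrophage shares were 12.1%, 29.6%, 6.54% and 27.9% in the same order of groups, against 4.44%, 12.2%, 4.68% and 10.1% in B cells. Median depths were 3878, 2588, 4013 and 4953 UMIs in macrophages and 828, 1389, 1062 and 2364 in B cells. What part free RNA or joined cells had in the Ccl5 of myeloid cells was not tested in any group. B cell shares given below are set beside other gates in the same way, not as a matched background.

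In the combined dendritic set no member was called for CD40 in either tumour type, where 1.26% and 8.92% of genes were called in control and B2m-null tumours. Ccl5 stood at 1362, 1117, 2039, 1485 and 1899 CPM in control isotype and at 1229.6 and 2981 CPM in control CD40, with overlap. It stood at 1546, 1167, 504, 1206 and 1900.1 CPM in B2m-null isotype and at 2275, 455 and 391 CPM in the 3 B2m-null CD40 mice with enough cells. Mature cells, the dendritic gate with the most Ccl5, made up 34.2% of this set in control isotype, 27.5% in control CD40, 39.7% in B2m-null isotype and 43.0% in B2m-null CD40. The set held 80 cells in control CD40 and 158 in B2m-null CD40. The log2 fold changes of Ccl5 were 0.46 (SE 0.44, edgeR adjusted p = 0.75) and -0.21 (SE 0.40, edgeR adjusted p = 0.791).

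Ccl3 in CD8 T cells stood at 839, 754, 1064, 759.6 and 860.0 CPM in control isotype and at 630.4 and 438 CPM in control CD40. The groups did not overlap, but the log2 fold change of -0.65 (SE 0.46) did not pass (edgeR adjusted p = 0.285). The B2m-null mice stood at 973, 388, 438, 381 and 2534 CPM under isotype and at 159, 156, 194 and 188 CPM under CD40. All 4 CD40 mice, of both pools, lay close together below every isotype mouse. Ccl3 fell by 2.26 on the log2 scale (SE 0.40, edgeR adjusted p = 0.00141), and the call held without any 1 mouse or pool. Its size depended on isotype mouse 5, at 2534 CPM, without which it was -1.39, and it was -1.21 in cells with 500 or more genes and no more than 5% mitochondrial counts. With cells thinned to 2000 UMIs the value was -1.59 (adjusted p = 0.0511, edgeR). In the same B2m-null CD8 T cells the NK markers stood at 233 to 356 CPM under isotype and 109.7 to 203 CPM under CD40, and the T cell markers at 2115 to 3520.4 and at 4366 to 7006 CPM, neither with overlap. In control tumours the T cell markers of CD8 T cells stood at 3691 to 4055 CPM under isotype and 4154 to 4483 CPM under CD40, and macrophage markers at 51.8 to 78.2 and 93.8 to 102 CPM, also without overlap. The part of these markers in the Ccl3, Ccl4 and Ccl5 results of CD8 T cells was not tested.

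Ccl4 in CD8 T cells stood at 1794, 1415, 1791, 1238 and 1158 CPM in control isotype and at 1966 and 1426 CPM in control CD40. The groups overlapped, with a log2 fold change of 0.23 (SE 0.41, edgeR adjusted p = 0.691). In B2m-null tumours it stood at 3087, 1184, 2409, 819.7 and 4506 CPM under isotype and at 868, 387, 877 and 603 CPM under CD40. The isotype mice were widely spread, and the lowest of them lay within the CD40 range. Ccl4 fell by 1.62 (SE 0.35, edgeR adjusted p = 0.00545). The call was lost with the lane as the unit (-1.30, adjusted p = 0.164, edgeR) and with thinned cells (-1.21, adjusted p = 0.0511). The CD40 effect on Ccl4 differed between tumour types by -1.85 (SE 0.52, edgeR adjusted p = 0.0226), where 11.9% of genes differed. This difference lost its call without either control CD40 mouse (-1.57 and -2.02) and without either control isotype pool (-2.16 and -1.68).

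Fewer CD8 T cells of B2m-null CD40 mice held Ccl3, and its UMIs lay in few cells. After thinning, Ccl3 was found in 40.3% of CD8 T cells in control isotype, 24.8% in control CD40, 19.2% in B2m-null isotype and 10.5% in B2m-null CD40. The unthinned shares were 45.3%, 18.5%, 25.5% and 12.0%, against 4.44%, 4.88%, 5.85% and 1.78% in B cells. Ccl4 was found in 55.8%, 60.6%, 33.8% and 33.6% of thinned CD8 T cells, against 21.7% and 6.67% of thinned B cells in control CD40 and B2m-null CD40. The tenth of CD8 T cells with the most Ccl3 held 65.5%, 82.8%, 89.2% and 98.6% of its UMIs in the same order of groups. These values follow in large part from the thinned shares of cells with Ccl3 and are no separate measure.

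**Figure D3:**
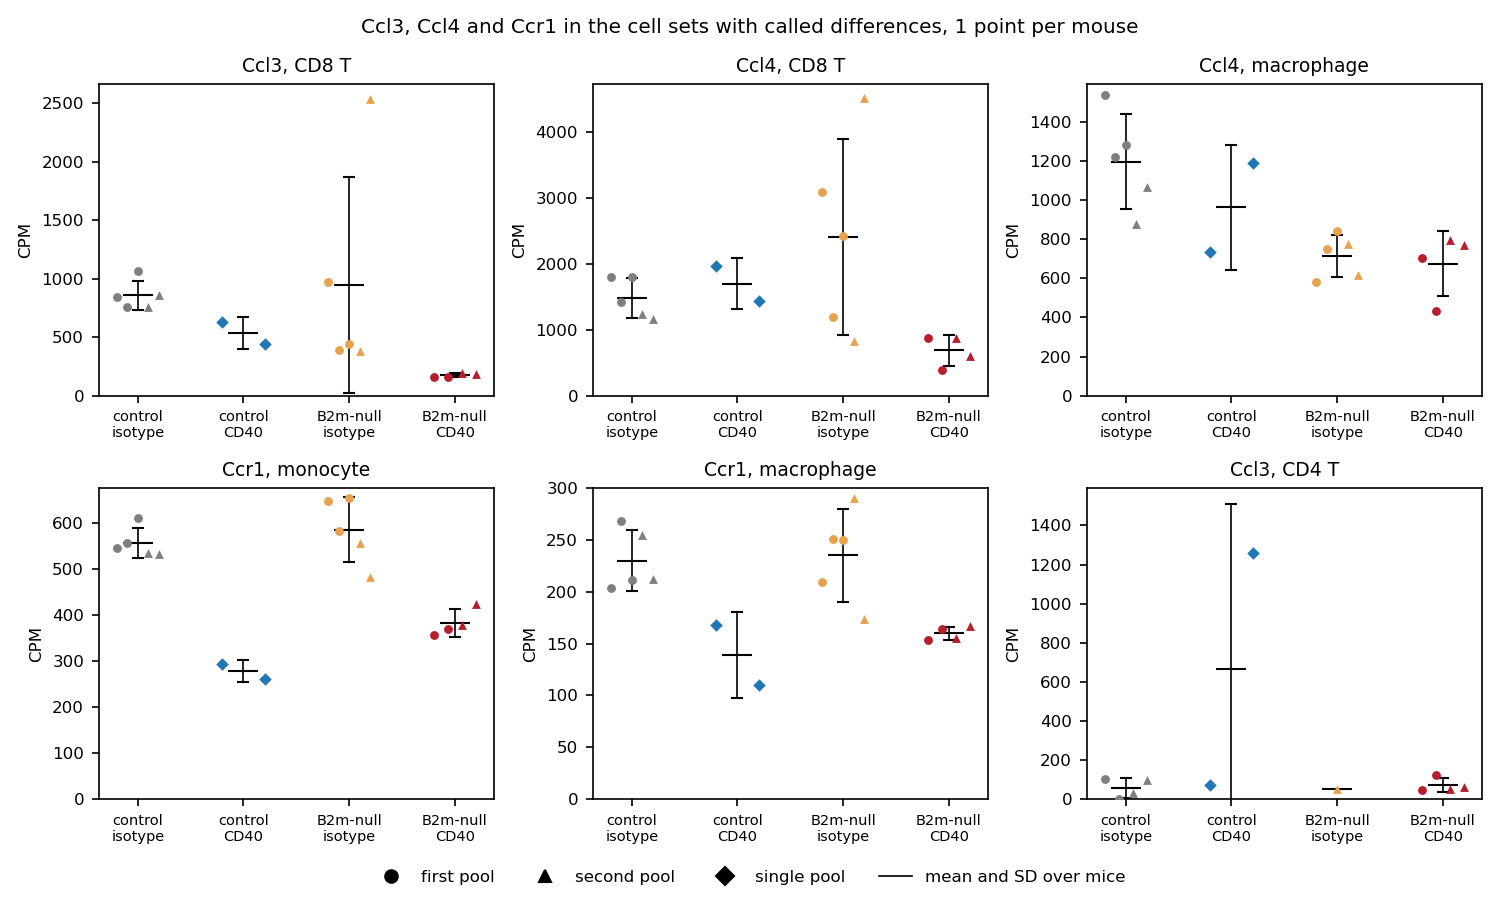
Ccl3, Ccl4 and Ccr1 in CPM (y axes, from 0) by group (x axes) in the sets with called differences, 1 point per mouse, pools as marker shapes, lines for the mean and SD over mice. Ccl3 in CD8 T cells lies between 156 and 194 CPM in all 4 B2m-null CD40 mice, below all other mice.

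Ccl3 in CD4 T cells was set by 1 mouse. It stood at 104, 0, 31.1 and 99.0 CPM in control isotype, where the second mouse had a count of 0, and at 69.5 and 1261 CPM in control CD40. The lower CD40 mouse lay within the isotype range. Ccl3 rose by 3.52 (SE 0.73, edgeR adjusted p = 0.0103), and without control CD40 mouse 2 the value was 0.20. Ccl4 in the same cells stood at 171 and 2247 CPM in control CD40 and did not pass (edgeR adjusted p = 0.261).

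In NK cells, monocytes and macrophages, neither Ccl3 nor Ccl4 was called for CD40 in either tumour type. Ccl3 in monocytes stood at 906, 685, 1055, 804 and 936 CPM in control isotype and at 495 and 507 CPM in control CD40, without overlap, and the log2 fold change was -0.80 (SE 0.41, edgeR adjusted p = 0.264). Ccl4 in monocytes stood at 2295, 1768, 2458, 1704 and 1861 CPM in control isotype and at 1098 and 761 CPM in control CD40, also without overlap, at -1.12 (SE 0.41, edgeR adjusted p = 0.112). In B2m-null CD40 monocytes both differed by pool, with Ccl3 at 258 and 323 CPM in the first and 970.4 and 1206 CPM in the second. In macrophages Ccl3 stood at 347, 396, 421, 346 and 416 CPM in control isotype and at 229.8 and 273 CPM in control CD40. These groups did not overlap either, and the log2 fold change of -0.48 (SE 0.22) did not pass (edgeR adjusted p = 0.128).

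Ccr1 in monocytes stood at 546, 556, 611, 533 and 533 CPM in control isotype and at 294 and 260.4 CPM in control CD40. The groups were well apart. Ccr1 fell by 1.00 on the log2 scale (SE 0.14, edgeR adjusted p = 7.21e-05), and the call held under every alternative run. In B2m-null tumours it stood at 647, 583, 654, 556 and 483 CPM under isotype and at 356, 369, 379 and 424 CPM under CD40, again without overlap. Ccr1 fell by 0.41 (SE 0.10, edgeR adjusted p = 0.00616). That call was lost without the first B2m-null isotype pool (-0.27, adjusted p = 0.139, edgeR) and without the first B2m-null CD40 pool (-0.31, adjusted p = 0.0902). The fall was smaller by 0.60 in B2m-null tumours (SE 0.17, edgeR adjusted p = 0.0278, 11.8% of genes called), and this difference lost its call under 12 of 34 alternatives, leaving out either control CD40 mouse among them (0.70 and 0.50). Macrophage markers in the monocyte gate were also lower under CD40 without overlap, at 1501 to 2026 CPM in control isotype and 1252 to 1402 CPM in control CD40, and at 1639 to 2409 and 1203 to 1457 CPM in B2m-null tumours. Their part in the Ccr1 and Ccl5 results of monocytes was not tested.

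Ccr1 in macrophages stood at 204, 268, 211, 255 and 212 CPM in control isotype and at 168 and 109.8 CPM in control CD40, without overlap. It fell by 0.62 (SE 0.18, edgeR adjusted p = 0.0182), but without control CD40 mouse 2 the value was -0.38. Without the first control isotype pool it was -0.64 (adjusted p = 0.0635, edgeR). In B2m-null tumours it stood at 209.6, 251, 250.4, 291 and 174 CPM under isotype and at 153, 164, 156 and 167 CPM under CD40. The groups did not overlap, and the log2 fold change of -0.35 (SE 0.14) did not pass (edgeR adjusted p = 0.0511). After thinning, Ccr1 was found in 34.7% of macrophages in control isotype, 19.2% in control CD40, 34.1% in B2m-null isotype and 24.6% in B2m-null CD40. The unthinned shares were 51.01%, 26.6%, 52.7% and 43.2%, against 1.11% to 5.92% in B cells.

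In CD4 T cells Ccr1 was low, at 41.6, 101, 15.6 and 61.9 CPM in control isotype and at 5.35 and 10.7 CPM in control CD40. The groups did not overlap, and the log2 fold change of -2.63 (SE 0.92) did not pass (edgeR adjusted p = 0.129). The single B2m-null isotype mouse stood at 49.4 CPM and the B2m-null CD40 mice at 12.0, 7.29, 6.64 and 7.74 CPM, with -2.52 (SE 0.94, edgeR adjusted p = 0.323). These levels rest on 19, 4, 11 and 9 counts in control isotype, control CD40 and the B2m-null groups in turn.

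**Figure D4:**
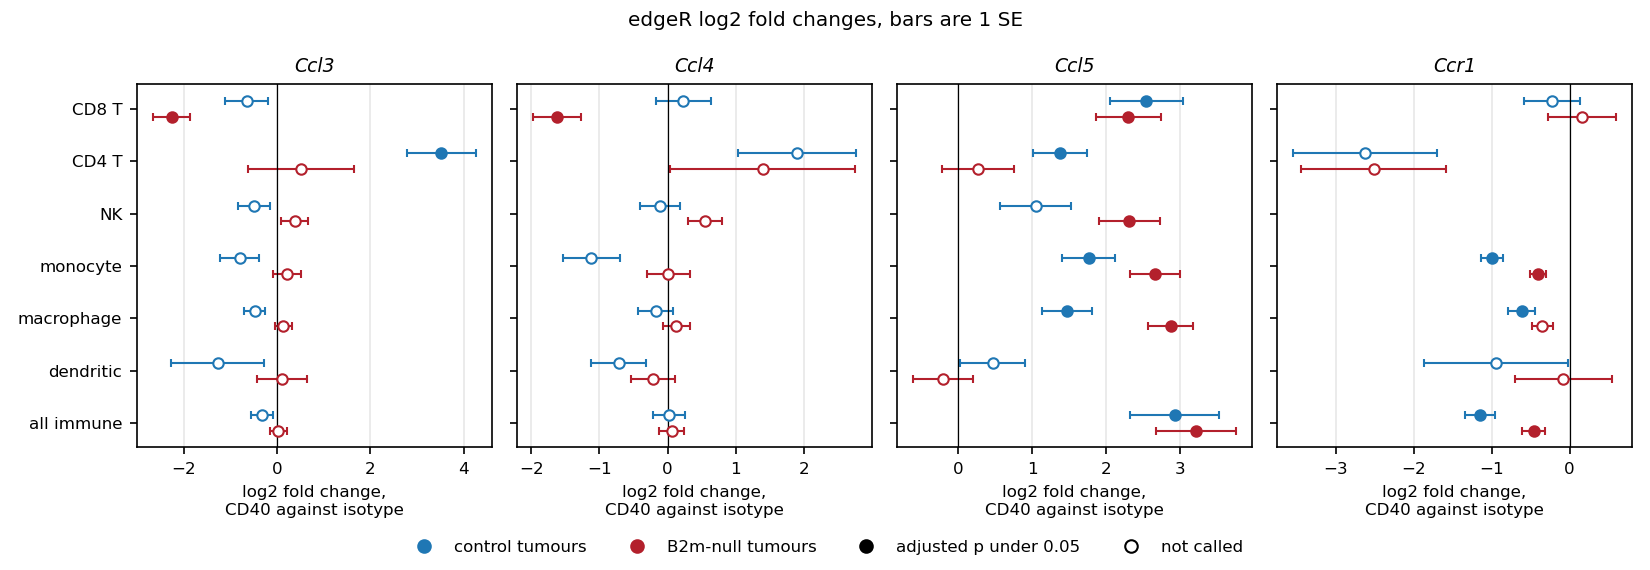
Log2 fold changes of anti-CD40 against isotype from edgeR (x axes) for each member in 6 cell sets and over all immune cells (y axis), in control and B2m-null tumours; bars are 1 SE and filled points passed an adjusted p of 0.05. Ccl5 lies to the right of 0 everywhere except in dendritic cells of B2m-null tumours, and Ccr1 lies to the left in monocytes and macrophages.

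The second comparison set B2m-null against control tumours. Under isotype 3 of 23 pairs passed, all lower, against 3.8% of all pairs (1.5% higher and 2.3% lower), and these were Ccl5 in monocytes and macrophages and Ccl4 in macrophages. Ccl5 in macrophages, at the values given above, did not overlap between the groups and was lower in B2m-null tumours, at -1.62 (SE 0.29, edgeR adjusted p = 0.00409, 9.91% of genes called). Without the first control isotype pool it was -1.18 (adjusted p = 0.149, edgeR), and without the first B2m-null isotype pool -1.76 (adjusted p = 0.0763). Ccl5 in monocytes was also lower without overlap, at -1.45 (SE 0.34, edgeR adjusted p = 0.0194, 2.63% of genes called). That call was lost without any of 4 single mice (B2m-null isotype mice 1, 3 and 5 and control isotype mouse 1, between -1.33 and -1.32) and without 3 of the pools (-1.47 to -1.39). With cells thinned to 2000 UMIs the value was -0.63 (adjusted p = 0.432, edgeR).

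Ccl4 in macrophages stood at 1539, 1223, 1282, 882 and 1070.0 CPM in control isotype and at 584, 753, 845, 775 and 619 CPM in B2m-null isotype. Every control mouse was above every B2m-null mouse. Ccl4 was lower by a log2 fold change of -0.80 (SE 0.19, edgeR adjusted p = 0.0154). Without the first control isotype pool the value was -0.49 (adjusted p = 0.346, edgeR), and without the first B2m-null isotype pool it was -0.80 (adjusted p = 0.190). After thinning, Ccl4 was found in 57.2% of macrophages in control isotype and 43.1% in B2m-null isotype, and unthinned in 66.9% and 55.5%, against 11.1% and 8.77% of the shallower B cells unthinned. Ccl3 in the same macrophages differed by -0.26 and did not pass, although its gene is the neighbour of Ccl4.

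Under CD40, 3 of 23 pairs passed between the tumour types, 1 higher and 2 lower, against 7.41% of all pairs (3.7% higher and 3.7% lower). Ccl3 in CD8 T cells was lower in B2m-null tumours, with values of 156 to 194 CPM against 438 and 630.4 CPM, at -1.55 (SE 0.45, edgeR adjusted p = 0.0354, 8.3% of genes called). The call was lost without either control CD40 mouse (-1.26 and -1.77), without B2m-null CD40 mouse 1, 2 or 4 (-1.51, -1.47 and -1.59) and without the first B2m-null CD40 pool (-1.37). Ccl3 in CD4 T cells was lower at -3.27 (SE 0.62, edgeR adjusted p = 0.0141, 0.677% of genes called), a difference that was gone without control CD40 mouse 2 (-0.00049). Ccr1 in monocytes was higher in B2m-null tumours, at 0.58 (SE 0.14, edgeR adjusted p = 0.0204, 5.9% of genes called), without overlap. This call was lost without either control CD40 mouse (0.70 and 0.51), without B2m-null CD40 mouse 4 (0.51) and without the second B2m-null CD40 pool (0.46). The CD40 effects differed between tumour types for 3 of 23 pairs, 2 higher and 1 lower, against 11% of all pairs (5.94% higher and 5.1% lower).

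Over all immune cells of a mouse together, 7 of 20 tests of the 4 members in the 5 contrasts passed. Of all genes, 29.3% and 40% were called for CD40 in control and B2m-null tumours, 8.94% and 17.7% for genotype under isotype and CD40, and 21.6% for the difference of the CD40 effects. In such sums, fewer cells of a type and less RNA per cell cannot be told apart. Ccl5 stood at 813, 586, 331, 349 and 632 CPM in control isotype and at 2845 and 4947 CPM in control CD40, well apart. It rose by 2.93 (SE 0.60, edgeR adjusted p = 0.00259, 29.3% of genes called). The B2m-null mice stood at 127, 288, 170.1, 559.7 and 188 CPM under isotype and at 763, 795, 4455 and 2793 CPM under CD40. The second CD40 pool was again the higher one, and no CD40 mouse overlapped an isotype mouse. Ccl5 rose by 3.21 (SE 0.54, edgeR adjusted p = 0.000438, 40% of genes called).

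Ccr1 over all immune cells stood at 166, 262, 228, 237 and 199 CPM in control isotype and at 112 and 78.9 CPM in control CD40. It fell by 1.15 (SE 0.19, edgeR adjusted p = 0.000697), without overlap between groups. In B2m-null tumours it fell by 0.46 (SE 0.15, edgeR adjusted p = 0.0194), and that call was lost without the first isotype pool (-0.45), without the second CD40 pool (-0.35) and without B2m-null CD40 mouse 3 (-0.38). Ccl4 was lower in B2m-null than control tumours under isotype, at -0.69 (SE 0.18, edgeR adjusted p = 0.0292, 8.94% of genes called). Under CD40, Ccr1 was higher in B2m-null tumours by 0.74 (SE 0.19, edgeR adjusted p = 0.0178, 17.7% of genes called), without either control CD40 mouse no longer called (0.95 and 0.55), nor without the first B2m-null CD40 pool (0.62). The CD40 effects on Ccr1 differed by 0.68 (edgeR adjusted p = 0.0483, 21.6% of genes called), a call lost under 19 of 34 alternatives. Ccl4 lost its call without any of 4 single mice and 3 pools, with values from -0.73 to -0.38.

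Where the UMIs of each ligand came from was then counted per mouse. CD8 T cells held 17.99% ± 3.96 (SD, n = 5) of the Ccl5 UMIs in control isotype and 51.8% ± 0.745 (n = 2) in control CD40. They held 11.4% ± 7.79 (n = 5) in B2m-null isotype and 45.2% ± 17.9 (n = 4) in B2m-null CD40, the latter between 26.3% and 62.8%. Neither pair of groups overlapped. CD8 T cells made up a mean of 6.11%, 24.4%, 2.97% and 19.0% of cells in the same order of groups. The two-sided exact permutation p was 0.0952 in control tumours, the smallest the design allows, and 0.0159 in B2m-null tumours, or 0.267 and 0.190 after adjustment over 24 tests. Mature dendritic cells held 12.3% ± 3.35 of Ccl5 UMIs in control isotype and 18.3% ± 9.25 in B2m-null isotype while making up 1.86% and 2.76% of cells. Under CD40 they held 0.256% and 1.28% while making up 0.102% and 0.340% of cells.

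Macrophages held more of the Ccl3 and Ccl4 UMIs than any other gate in the mean of each group. Their share of Ccl3 was 38.1% ± 8.81 (SD, n = 5) in control isotype, 29.1% ± 5.14 (n = 2) in control CD40, 53.6% ± 10.9 (n = 5) in B2m-null isotype and 47.0% ± 5.97 (n = 4) in B2m-null CD40. Their share of Ccl4 was 43.9%, 33.3%, 52.3% and 44.7%. Macrophages made up a mean of 39.3%, 33.8%, 48.5% and 38.7% of cells in the same order of groups. CD8 T cells held 12.0% of Ccl3 in control isotype and 3.52% in B2m-null isotype, without overlap and beside 6.11% and 2.97% of cells, with a two-sided exact permutation p of 0.00794 that became 0.190 after adjustment. Neutrophils, despite their high level, held 1.20% of Ccl3 UMIs in control isotype. None of the 24 tests passed after adjustment. Cells in no gate held 26.2% to 46.2% of Ccl5, 24.5% to 32.2% of Ccl3 and 25.6% to 30.0% of Ccl4 UMIs in the group means. These shares are thus of gated types only in part. In control CD40 the cells in no gate held more Ccl3 than macrophages, at 32.2%.

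**Figure D5:**
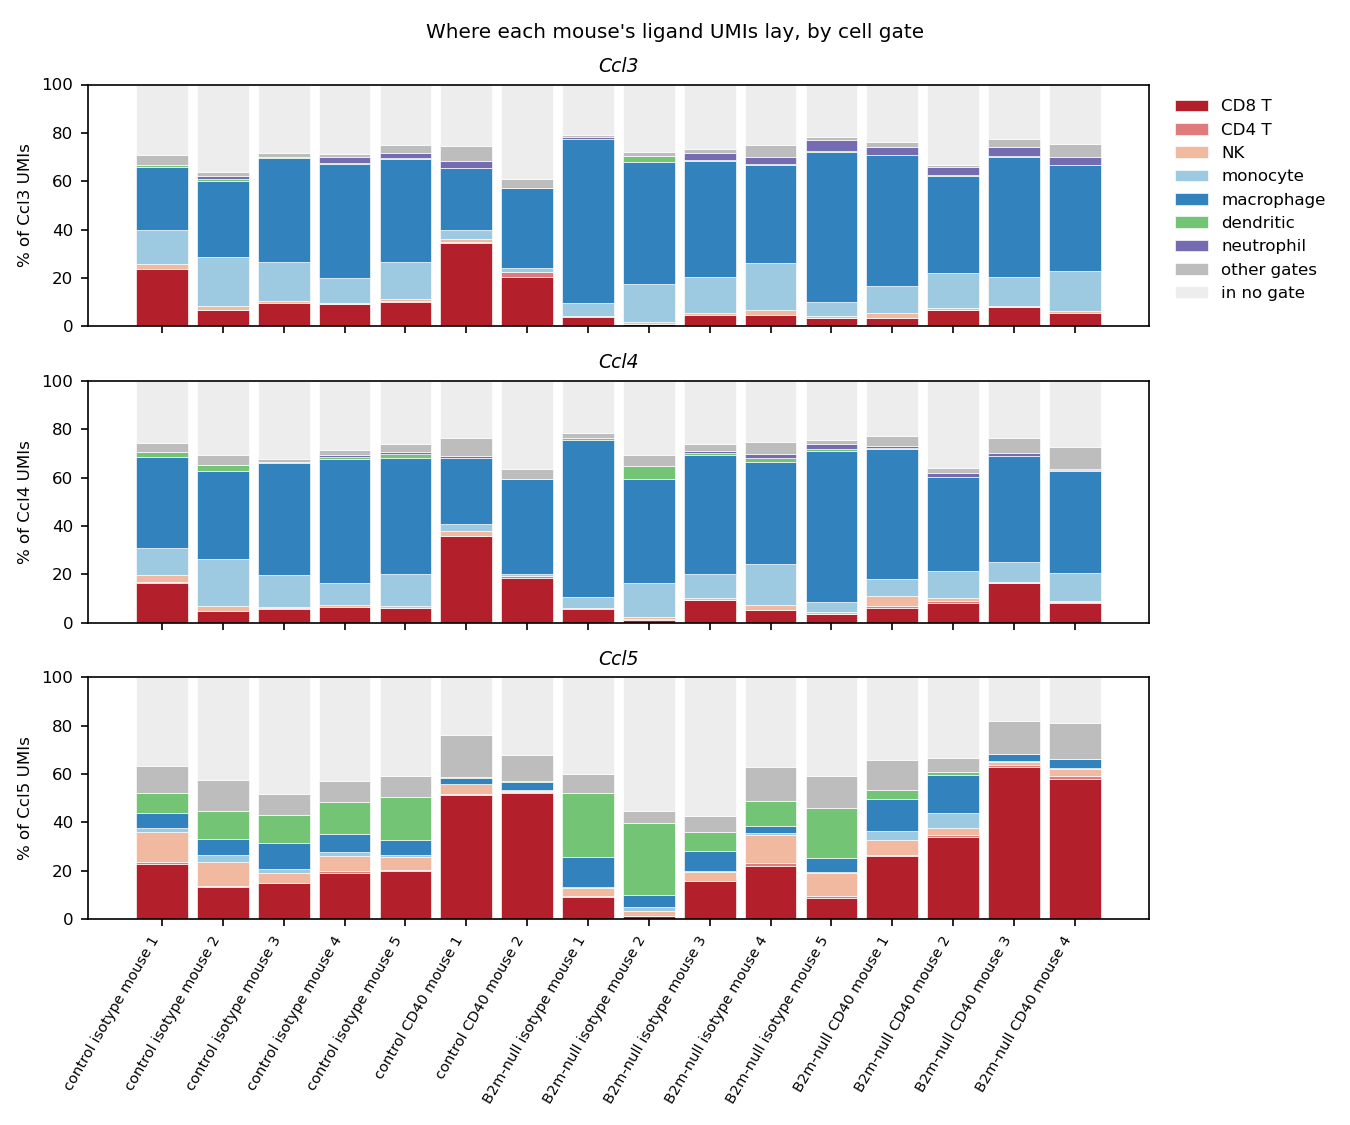
Percent of each mouse's Ccl3, Ccl4 and Ccl5 UMIs (y axes) found in each cell gate, 1 stacked bar per mouse (x axis). CD8 T cells take over 50% of Ccl5 UMIs in both control CD40 mice, and macrophages take the largest gated part of Ccl3 and Ccl4 in most mice.

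Other genes of the chemokine pathway were read from a list of 52, chosen with earlier results known. In CD8 T cells under CD40, 13 rose and 5 fell of 46 tested in control tumours, where 35.6% of all genes were called, with a median log2 fold change of 0.22 against 0.01 over all genes. Of 8 ligands related to the members 5 fell and 1 rose. Of 12 genes of factors known to act on these chemokine genes 7 rose and none fell, beside the same share of all genes. Xcl1, a chemokine for cDC1, fell by 1.85 (edgeR adjusted p = 0.0283) and Ccl9, another Ccr1 ligand, fell by 1.63 (adjusted p = 5.6e-05, edgeR). The CD8 T gate also held myeloid transcripts, with Lyz2 at 166 CPM against 5417 CPM in macrophages. What part such transcripts had in the related ligands of CD8 T cells was not tested in either tumour type. Irf1, an interferon-regulated transcription factor gene, rose by 1.34 (edgeR adjusted p = 2.77e-05), and Pik3r5, a subunit of the lipid kinase downstream of the receptors, rose by 1.58 (edgeR adjusted p = 3.84e-05).

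Among CD8 T cells from B2m-null tumours 7 rose and 3 fell of 46, where 10.7% of all genes were called, with a median of 0.29 against 0.01. Of the 8 related ligands 1 rose and none fell there, and of the 12 factor genes 1 rose and 2 fell. Irf1 rose by 1.00 (edgeR adjusted p = 0.00331) and Rac2, a GTPase of leukocyte migration, by 0.97 (edgeR adjusted p = 0.000832). Rel, an NF-kappaB subunit gene, fell by 0.97 (edgeR adjusted p = 0.0115), and Grk3, a receptor kinase, fell by 2.77 (edgeR adjusted p = 0.0381). In NK cells Rgs1, which dampens G protein signals, rose in both tumour types, by 1.18 (edgeR adjusted p = 0.00238) and 1.08 (edgeR adjusted p = 0.00205). The counts in NK cells were 1 up and 1 down of 35 in control tumours, where 2.25% of all genes were called, the fall being Ccl2 at -2.31 (edgeR adjusted p = 0.0379). They were 4 up and 1 down in B2m-null tumours, where 4.5% were called, with Gng2, a G protein subunit, at 1.17 (edgeR adjusted p = 0.0088) and Fos at -0.97 (edgeR adjusted p = 0.0241). Lyz2 stood at 331 CPM in the NK gate, and the part of myeloid transcripts in the Ccl2 of NK cells was not tested.

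In monocytes no list gene rose and 7 of 45 fell in control tumours, where 7.09% of all genes were called, with a median of -0.10 against 0.00 over all genes. They included Ccl12 at -1.75 (edgeR adjusted p = 0.00143) and Ccl7 at -1.76 (edgeR adjusted p = 0.0241), which attract monocytes. In B2m-null tumours 6 rose and 12 fell, where 28.4% of all genes were called, with a median of -0.02, the same as over all genes. Ccl12 rose there, by 0.86 (edgeR adjusted p = 0.0081), as did Irf1, by 0.75 (edgeR adjusted p = 0.00415). Ccl24, an eosinophil-attracting chemokine, fell by 5.35 (edgeR adjusted p = 1.35e-05), and Rgs18 by 1.60 (edgeR adjusted p = 0.00136).

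In macrophages of control tumours 3 rose and 9 fell of 48, where 23.5% of all genes were called, with a median of -0.09 against -0.01. Ccl2, the main ligand that draws monocytes, fell by 1.57 (edgeR adjusted p = 0.000606) and Ccl12 by 1.43 (edgeR adjusted p = 0.000606). Klf13, a transcription factor known to act on Ccl5 in T cells, rose by 0.45 (edgeR adjusted p = 0.0248) and Gng2 by 0.43 (edgeR adjusted p = 0.0493). In B2m-null tumours 11 rose and 9 fell, where 39.3% of all genes were called, with a median of 0.03 against -0.02. Irf1 rose by 1.24 (edgeR adjusted p = 0.000682) and the kinase gene Ptk2b by 0.68 (edgeR adjusted p = 0.000187), while Ccl24 fell by 2.99 (edgeR adjusted p = 0.00425) and Rgs18 by 2.00 (edgeR adjusted p = 6.41e-05).

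In CD4 T cells 1 list gene rose and 1 fell of 39 in control tumours (3.03% of all genes called), Nfatc1 at 1.14 (edgeR adjusted p = 0.0462) and Rgs10 at -2.61 (edgeR adjusted p = 0.0344), and none was called in B2m-null tumours, where the isotype arm held 1 mouse and 0.28% of all genes were called. In dendritic cells none of 45 was called in control tumours (1.26% over all genes). In B2m-null tumours Srgn, which encodes the proteoglycan that stores chemokines in granules, rose by 0.62 (edgeR adjusted p = 0.0192). Gnai3, an inhibitory G protein subunit, fell by 1.21 (edgeR adjusted p = 0.00123), Rel by 1.09 (edgeR adjusted p = 0.0025), and 3 list genes fell in all, where 8.92% of all genes were called.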

How the data were processed

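The authors deposited UMI counts per gene and cell barcode, with hashtag counts in the same matrices, from 3' version 3 libraries per the labels; Cell Ranger 3.0.0, bcl2fastq 2.20.0.422 and mm10 are named in the submitters' processing notes. Hashtags were assigned with a Gaussian mixture (posterior at least 0.9, at least 20 counts), and cells with 2 hashtags over 2.5 SD above background were dropped as doublets; 2 of 8 files hold 3 hashtags and 6 hold 2, although the labels list 3. Barcodes needed 200 or more genes and no more than 10% of counts from mitochondria, which left 78026 assigned cells from 16 mice of 116552 barcodes. A gate needed at least 2 UMIs of its own markers and at most 1 of another lineage, limits set after the data were seen. Shares of cells by group (gate shares, cells with a UMI, co-detection, concentration) also count cells that passed these filters without an assigned mouse; levels per mouse, tests and UMI sources do not. Doublets within 1 mouse cannot be marked by hashtags.

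Counts were summed per mouse and set (at least 20 cells) and tested with edgeR 4.0.16 (TMM, filterByExpr, quasi-likelihood, R 4.3.3), Benjamini-Hochberg adjusted over all genes of the set, with all 4 groups in 1 fit of 5 contrasts. The control CD40 lanes, technical replicates per the labels, were summed. The fit was also run on simulated counts with known changes, and that outcome is not given here. UMI shares were compared with exact permutation tests. Per sample, sets held 22 to 4512 CD8 T cells and 884 to 5887 macrophages. The text names the members in every gate, from the 52-gene list the 2 largest called rises and falls per set and CD40 contrast, and the 3 genes most like each member. The members and lists were chosen with earlier results of these data known. Annotation and coding sequences are from GENCODE vM21, promoters from RefSeq. A sequence comparison with Ccl4 is not reported here. Alternatives included DESeq2 1.42.0, other gates, filters and thinning, and leaving out each mouse and pool.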

Additional observations from a re-analysis of the deposited data

Results flagged for a closer look

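In 7 of 64 groups of 4 or 5 mice, 1 mouse lay far from the others by Dixon's criterion, which chance marks in about 5% of groups. Ccl3 in CD8 T cells of B2m-null isotype mouse 5 was 2534 CPM from 54 cells, with the next mouse at 973 CPM. Ccr1 in CD8 T cells of control isotype mouse 3 was 15.0 CPM, with the next at 10.7 CPM. Ccl4 in CD4 T cells of control isotype mouse 1 was 1039.9 CPM from 37 cells, with the next at 113 CPM. Ccl3 in CD4 T cells of B2m-null CD40 mouse 2 was 124 CPM from 17 counts, with the next at 59.3 CPM. Ccr1 in NK cells of control isotype mouse 3 was 49.6 CPM from 4 counts, with the next at 12.0 CPM. Ccl3 in monocytes of B2m-null isotype mouse 1 was the lowest of its group at 529 CPM, with the next at 703 CPM. Ccr1 in the dendritic set of B2m-null isotype mouse 3 was 78.5 CPM from 21 counts, with the next at 35.0 CPM.

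EdgeR's interaction term asks whether the effect of CD40 differed between control and B2m-null tumours. At an adjusted p under 0.05 it was called for 11.9% of all genes in CD8 T cells and 11.8% in monocytes. The shares were 22.3% in macrophages and 21.6% over all immune cells. Among the members it was called for Ccl4 in CD8 T cells (-1.85 in log2) and Ccr1 in monocytes (0.60). It was also called for Ccl5 in macrophages (1.40) and Ccr1 over all immune cells (0.68). Each of these 4 lost its call without control CD40 mouse 1.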

How the results depend on the processing

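Of 30 called results, 6 stayed called in every alternative: Ccl5 in monocytes and macrophages of B2m-null tumours, Ccl5 over all immune cells in both tumour types, and Ccr1 in monocytes and over all immune cells in control tumours. The share of calls over all genes that stayed in every alternative is not given here, so this count cannot be read as particular to the members. Over 748 recomputed values, 153 kept their direction but lost the call, and 2 reversed. Both were Ccl5 in NK cells for CD40 in B2m-null tumours (-0.17 with cells thinned to 2000 UMIs, -0.42 with at least 50 cells per mouse). The choice of mice fixed the sign of the latter, and the mice left in the former are not given here. The cause of lost calls was not tested, except that fewer mice, lanes or cells leave less information.

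For CD40 in control tumours, the 7 called pairs became 13 with no filter on low counts, 11 with only the groups compared and 11 with the gate of the highest marker level, and 1 to 7 with a mouse or pool left out. For CD40 in B2m-null tumours, 7 became 3 with the lane as the unit and 2 with thinned cells, and 5 to 10 on leaving out. For genotype under isotype, 3 became 5 with no filter, 1 by lane and 0 to 3 on leaving out. For genotype under CD40, 3 became 6 with no filter, 5 with the highest-marker gate, 5 with at least 50 cells, and 1 with each of DESeq2, only the groups compared, the lane as the unit and no cell with another lineage's markers, and 0 to 8 on leaving out. For the difference of CD40 effects, 3 became 9 with no filter, 1 by lane, 0 with thinned cells, 0 with stricter cells (500 or more genes, no more than 5% mitochondrial), and 0 to 7 on leaving out. Over all immune cells 7 calls became 4 by lane and 4 to 8 on leaving out. No share of ligand UMIs was called in any alternative, which says nothing of stability where 2 mice enter, since those tests cannot pass. The share of all gene and set pairs called in each alternative is not given here. Changes in these counts, and in those with the replicate block below, can therefore not be read as particular to the members.

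Replicate numbers are shared by pools of different groups. Deviations of same-numbered pools correlated at -0.11, 0.02 and 0.40 across 7933 genes, and the last pair of groups, both B2m-null, deviated together. The labels do not tie a number to a shared batch, so the main fit did not use the pairing. Ccl5 of CD8 T and NK cells is given by pool number above as description only. With the replicate block, 8 pairs were called for CD40 in B2m-null tumours and 3 for genotype under isotype, and all 13 called results it covers stayed called. A crossed pairing of the isotype pools, added after seeing the data, gave 3.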
